A study of Mus musculus with 9 samples.

Results

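Cytosolic ribosomal protein genes were followed in brain cells of mice given PLX5622, an inhibitor of the receptor CSF1R on which microglia depend for survival. The members were the genes whose symbol is Rpl or Rps with a number and at most a short letter ending, together with Rplp0, Rplp1, Rplp2 and Rpsa, without the Rps6k kinases and without hyphenated copies. There were 84 such genes among the 31053 genes of the count tables, 52 of the large subunit and 32 of the small subunit. Of these, 77 were the canonical genes and 7 were paralogs (Rpl3l, Rpl7l1, Rpl10l, Rpl22l1, Rpl36al, Rpl39l and Rps27l), and they lay on 19 chromosomes.

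All mice were C57BL/6 (C57BL/6J in the study's methods) females of 5 months. Ctrl mice were untreated and gave 1 brain per library, D0 mice had PLX5622 in the diet at 1200 mg/kg for 14 days, and D2 mice had the same diet and then control diet for 2 days. Each D0 and D2 library held 2 pooled brains. Live CD11b+ cells of the brain without the cerebellum were sorted and sequenced with the 10x Genomics 3′ v3 kit, which tags each captured transcript with a unique molecular identifier (UMI).

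The ribosome is built from ribosomal RNA and these proteins. The small subunit reads the messenger, and the large subunit joins amino acids and passes the chain out through its exit tunnel. The genes are scattered over the genome, and the canonical ones are expressed in every cell. Many of their messengers begin with a C and a run of pyrimidines, the terminal oligopyrimidine element, through which mTORC1 and LARP1 control their translation. Several members also act away from the ribosome: Rpl5 and Rpl11, which sit with the 5S RNA, can bind Mdm2, and Rps27l is a target of p53.

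The promoter windows of 6 members are shown because the comparisons that follow turn on them: Rpsa, Rps26 and Rpl22l1 were among the larger rises with treatment, Rps27 and Rps27l moved in opposite directions in dividing cells, and Rpl7l1 was lower in every D0 library than in every Ctrl library. Each runs from 40 bases before to 10 bases after the RefSeq start on GRCm38.p6, thus over the promoter and the first bases of the first exon, and is written 5′ to 3′ on the strand of the gene. Capitals mark a C within 5 bases of the start that is followed by at least 4 bases that are each C or T. The such C nearest the start was taken, so pyrimidines can stand before the capitals, as in Rps27.
Rpsa (chr9:120127726-120127775, + strand): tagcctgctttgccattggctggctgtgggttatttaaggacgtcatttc
Rps26 (chr10:128626497-128626546, - strand): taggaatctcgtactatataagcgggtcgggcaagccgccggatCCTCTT
Rpl22l1 (chr3:28805468-28805517, + strand): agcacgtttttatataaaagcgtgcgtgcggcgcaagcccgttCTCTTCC
Rps27 (chr3:90213639-90213688, - strand): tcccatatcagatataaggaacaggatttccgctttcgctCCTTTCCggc
Rps27l (chr9:66946046-66946095, + strand): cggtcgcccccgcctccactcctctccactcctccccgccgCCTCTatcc
Rpl7l1 (chr17:46782647-46782696, - strand): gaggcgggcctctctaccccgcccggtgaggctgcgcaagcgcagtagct

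Of the 84 members, 64 had a promoter in the RefSeq table. A C followed by at least 4 pyrimidines stood exactly at the annotated start in 12 of 64 (18.8%), against 2.33% of all 20592 promoters. It stood within 5 bases of the start in 28 (43.8%), against 18.7%. The bases before the C were not considered, so a run may begin earlier. The letters CCGGAAG stood on either strand of the window of 250 bases before to 50 after the start in 25 members (39.1%), against 11% of all promoters. TATAAA was found in 6 members (9.38%), against 13.2%. Of the windows printed, Rps26, Rpl22l1, Rps27 and Rps27l held a run and Rpsa and Rpl7l1 did not. RefSeq and GENCODE placed the starts of these 6 genes 0 to 241 bases apart, so a missing run says only that the letters are not at this start.

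The libraries held 20257894 to 61230741 UMIs, and 30463 cells passed the limits on UMIs, genes and mitochondrial share. No pair of libraries shared more than 8 cell barcodes (0.223% of the smaller library). All 12 microglia markers were detected in the microglia-like cells, where they made up 3.14 to 3.65% of UMIs in the Ctrl libraries. In D0 they made up 2.35 to 2.65%, and 1.98 to 2.12% in D2. Library D2-3 stood apart and was left out by the study: it held 136 non-dividing and 657 dividing microglia-like cells, and its values are given separately. The file headers name Cell Ranger 3.0.2 for Ctrl-1, all D0 libraries, D2-1 and D2-2, and 3.1.0 for D2-3, Ctrl-2 and Ctrl-3, so values within 1 version are also given. Each library is 1 value in the tests between groups, and their p-values measure the spread between libraries. Where 2 classes of the same library are compared, each class gives 1 value per library. Those p-values measure how the difference between the classes varies between libraries.

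Ribosomal protein transcripts made up a larger share of the microglial transcriptome under the inhibitor. In non-dividing microglia-like cells (20053 cells in 8 libraries) the members held 11.6, 10.9 and 10.6% of UMIs in the Ctrl libraries. The D0 libraries had 18.4, 17.6 and 17.0% and the D2 libraries 17.1 and 16.7%. Every treated library lay above every Ctrl library. The share was 17.7% ± 0.682 (SD, n = 3) in D0 and 11.04% ± 0.519 (SD, n = 3) in Ctrl, a ratio of 1.60 and a difference of 6.61 points, with p = 0.1 in a two-sided exact permutation test, the smallest p that 3 against 3 libraries allow. D2 exceeded Ctrl by 5.82 points (16.9% ± 0.284, SD, n = 2, exact permutation p = 0.2, the smallest possible). Between D2 and D0 the difference was -0.796 points (exact permutation p = 0.4), the libraries overlapped, and with D2-3 at 20.2% it became 0.312.

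**Figure D1:**
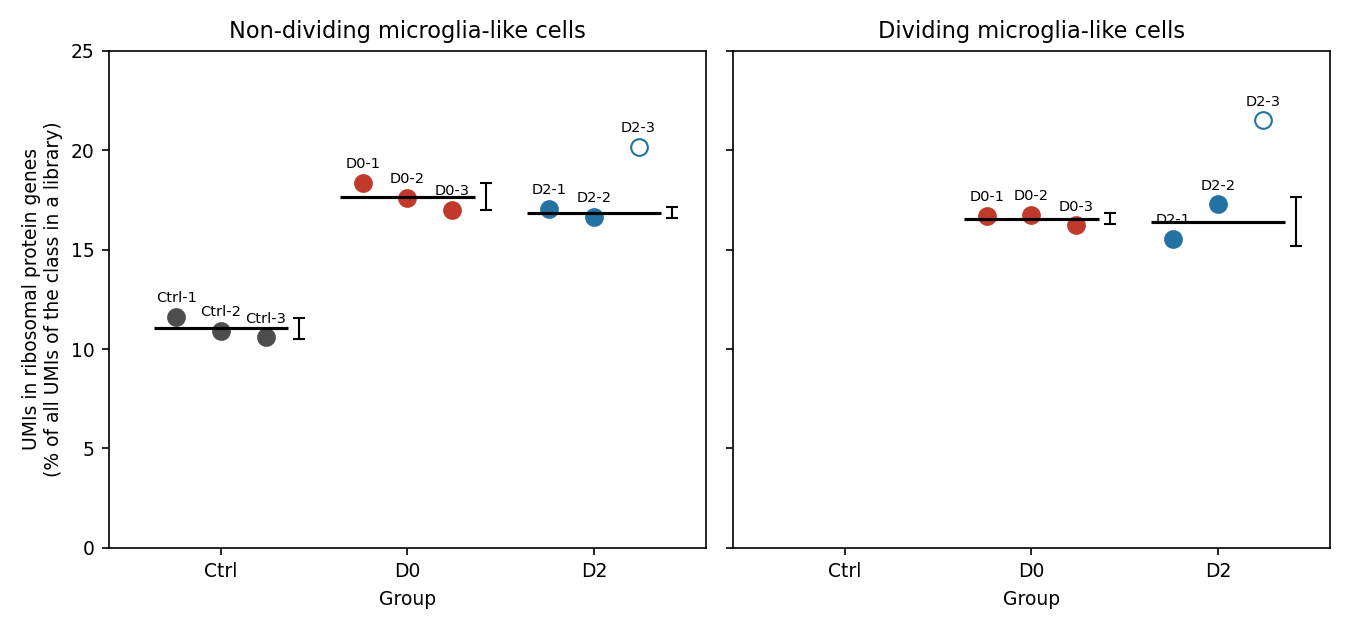
Share of UMIs in the 84 genes in each library, in percent of all UMIs of non-dividing (left) and dividing (right) microglia-like cells. Points are libraries, lines the means and bars the SD without D2-3, which is drawn as an open circle, and Ctrl libraries had under 20 dividing cells. The Ctrl libraries lie between 10.6 and 11.6%, and all D0 and D2 libraries at 15.5% or above in both classes.

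Within the 3.0.2 libraries, where Ctrl-1 is the lone control, D0 lay 6.04 and D2 5.25 points above it. Within the 3.1.0 libraries D2-3 lay 9.43 points above Ctrl-2 and Ctrl-3. A share cannot tell more transcripts of these genes from fewer of all others. Per cell, the members had 806 to 951 UMIs in the Ctrl libraries, 1038 to 1716 in D0 and 1041 to 1145 in D2, while all UMIs per cell were 7533 to 8714, 5654 to 10091 and 6104 to 6872. Large-subunit genes took 54.5 to 56.0% of member UMIs in each of these 8 libraries.

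The higher share was also seen among cells of like depth and like state. In each of 6 bands of UMIs per cell, from 500 to 20000, every D0 and D2 library with at least 20 cells lay above every Ctrl library. In the band of 4000 to 8000 UMIs the Ctrl libraries had 9.04 to 9.91% and the treated libraries 13.9 to 18.7%. In the cluster led by the immediate-early genes Egr1, Atf3 and Ier2, the Ctrl libraries had 8.70 to 11.4% and the treated libraries 15.1 to 17.0%. In the cluster led by Igf1, Cxcl13 and Arg1 the values were 12.4 to 12.9% and 17.3 to 19.2%. No library of one range entered the other in these classes.

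Gene by gene, nearly all members rose from Ctrl to D0. Of the 82 members tested on summed UMIs with edgeR's quasi-likelihood test, 79 rose and 0 fell (adjusted p under 0.05), where 6.49% of the 12236 genes tested rose and 2.3% fell. The median log2 fold change was 0.93 over the members and -0.04 over all genes. The CPM (UMIs scaled to a common library size with TMM factors) of 81 members were higher in every D0 library than in every Ctrl library, against 15.5% of all genes, and those of 1 member were lower, against 16.1%. With library totals in place of TMM the median of all genes was -0.28 and that of the members 0.69. By this scaling 71 members rose and 1 fell, where 579 of all genes tested rose and 1827 fell.

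**Figure D2:**
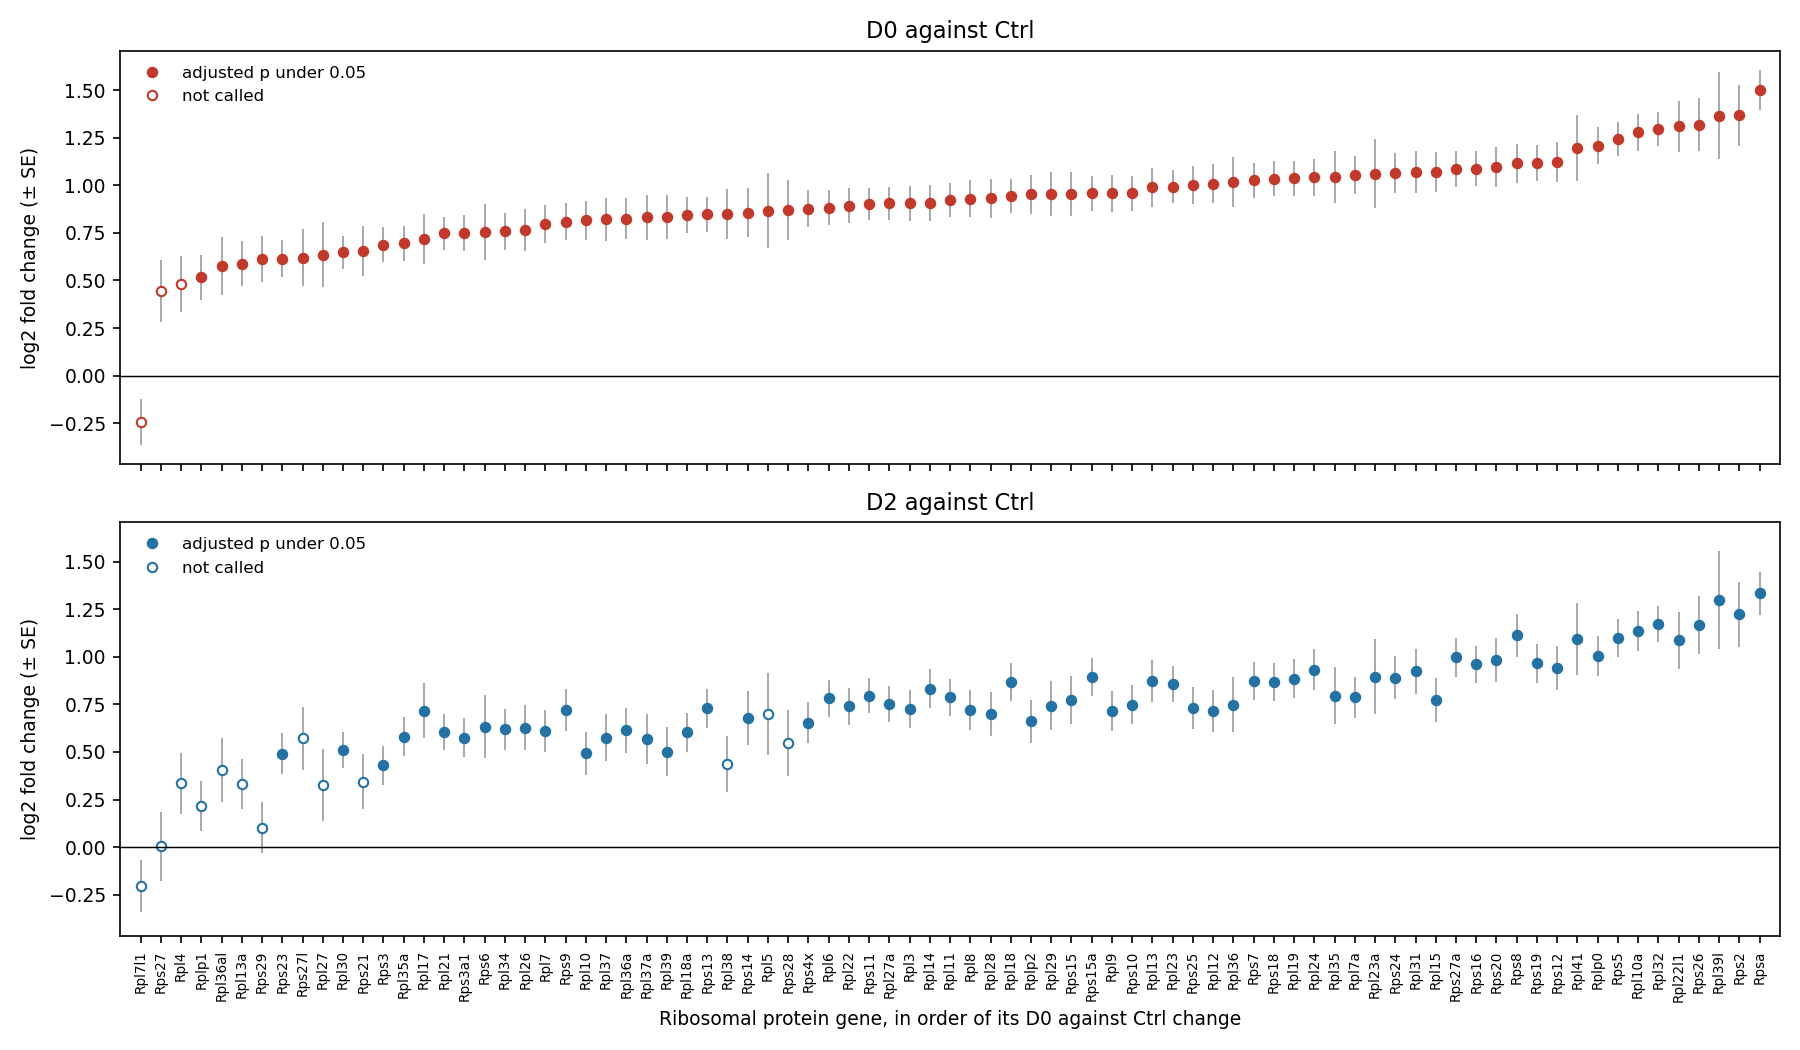
Fitted log2 fold change with its standard error for 81 of the 82 members tested, for D0 (top) and D2 (bottom) against the same Ctrl libraries, in the order of the D0 values. Filled points passed an adjusted p of 0.05, and all of them lie above 0.

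Rpsa, a protein of the small subunit that is also known as a laminin receptor, had the largest rise. It stood at 966, 988 and 1008 CPM in Ctrl, at 2639, 3101 and 2655 in D0 and at 2345 and 2632 in D2. Every D0 and D2 library lay above every Ctrl library, and D0 had a log2 fold change of 1.503 ± 0.105 (SE, adjusted p = 0.000140, edgeR). Among small-subunit genes Rps2, which lines the channel through which the messenger enters, followed at 1.37 ± 0.16, and Rps26, at the channel's exit, at 1.32 ± 0.14. All 17 members of the head and messenger channel of the small subunit rose in D0 (median 1.03), as did 31 of 32 small-subunit and 48 of 50 large-subunit genes tested.

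The stalk of the large subunit, which recruits the elongation factors, moved unevenly. Its base Rplp0 had 1331 to 1417 CPM in Ctrl and 2965 to 3451 in D0, a log2 change of 1.21 ± 0.10 (SE), and Rplp2 and Rpl12 rose by 0.95 ± 0.10 and 1.01 ± 0.10. Rplp1, the most abundant member, had 3817, 4266 and 3823 CPM in Ctrl and 5065, 6358 and 5608 in D0. Its rise of 0.52 ± 0.12 (adjusted p = 0.0260, edgeR) was below the member median, and its part in all member UMIs went from 3.90% in Ctrl to 2.96% in D0 and 2.73% in D2. The 5S partners Rpl5 and Rpl11 rose by 0.87 ± 0.20 and 0.92 ± 0.09, where the call of Rpl5 was lost without Ctrl-2, Ctrl-3, D0-1 or D0-2. Rps6, the substrate of the S6 kinases, rose by 0.75 ± 0.15 (a call that was lost on leaving out Ctrl-2 or Ctrl-3), and Rps27a, which is made as a fusion with ubiquitin, by 1.09 ± 0.09.

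Among the paralogs, Rpl22l1, the partner of Rpl22, had 162, 167 and 158 CPM in Ctrl, 337, 444 and 427 in D0 and 311 and 379 in D2. It rose by 1.31 ± 0.14 in D0 (adjusted p = 0.000586, edgeR), and Rpl22 itself by 0.89 ± 0.09, a difference that was not tested. Rpl39l, a paralog of the exit tunnel protein Rpl39 known from the testis, was the scarcest member tested, at 2.14 to 3.18 CPM in Ctrl and 5.86 to 7.39 in D0, and rose by 1.37 ± 0.23. Rpl36al and Rps27l rose by 0.58 ± 0.15 and 0.62 ± 0.15, and like Rplp1 they lost the call without Ctrl-1, Ctrl-2, Ctrl-3, D0-2 or D0-3 (Rpl36al also without D2-2). Rpl7l1, a nucleolar protein, went the other way without passing the test: 92.2, 85.1 and 88.9 CPM in Ctrl and 72.6, 74.7 and 77.3 in D0 (log2 -0.25 ± 0.12, adjusted p = 0.245, edgeR). Rpl3l and Rpl10l had too few UMIs to be tested.

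Besides Rpl7l1, Rps27 (0.44 ± 0.16) and Rpl4 (0.48 ± 0.15) did not pass. Rps27 had 969, 1538 and 1259 CPM in the Ctrl libraries, 1818, 1686 and 1620 in D0 and 1384 and 1133 in D2, so that both D2 libraries lay within the Ctrl range. Many members have processed pseudogenes or near-identical copies, and reads that match both are lost from unique counts, so a level compared between genes is uncertain.

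At D2, 69 of 82 members were above Ctrl and 0 below, where 6.23% of all genes rose and 4.1% fell (edgeR). The median log2 change was 0.73, against -0.01 over all genes. Libraries did not overlap for 75 members, all higher, against 19.2% of all genes that were higher and 22.0% that were lower. Rpsa again had the largest change (1.33 ± 0.11), followed by Rpl39l (1.30 ± 0.26), Rps2 (1.22 ± 0.17), Rpl32 (1.17 ± 0.10), Rps26 (1.17 ± 0.15) and Rpl10a (1.14 ± 0.10), and both comparisons share the Ctrl libraries. The call of Rpl39l was lost without Ctrl-2 or D2-1, on thinning cells to 2000 UMIs and with the version as a term. The 13 that did not pass included Rplp1 (0.22 ± 0.13), Rps29 (0.10 ± 0.13), Rps21 (0.34 ± 0.14) and Rps27 (0.00 ± 0.18). With only the 3.0.2 libraries, of which 1 is a Ctrl library, fewer members were called, with medians of 0.94 in D0 and 0.76 in D2. A version term over all 8 libraries is set by the Ctrl libraries alone, since every treated library among them is 3.0.2. It thus also compares treatment with Ctrl-1 only. Fewer members were called with this term, and the member medians were 0.92 in D0 and 0.71 in D2.

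D2 was then set against D0. The edgeR test called 0 members in either direction, as it called 0.0% of all genes, and DESeq2 called 0 members as well. An unadjusted edgeR p under 0.05 was found for 14 members, a count not set against all genes. All but 1 of the fitted changes lay below 0, with a median of -0.17, and for 50 members both D2 libraries were below all D0 libraries, against 12.9% of all genes. The lowest values were those of Rps29 (-0.51 ± 0.14, unadjusted p = 0.0041, adjusted p = 0.715) and Rps27 (-0.44 ± 0.19), both of the small subunit.

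Other genes of translation moved less than the members. Fau, which encodes a small-subunit protein fused to a ubiquitin-like domain, and the ribosomal scaffold Rack1 lie outside the naming rule. Fau rose in D0 by 0.86 ± 0.09 and Rack1 by 1.16 ± 0.10, and both also rose in D2. Of 8 elongation factors 6 rose in D0 and 3 in D2, among them Eef1a1, which brings transfer RNA to the ribosome (0.70 ± 0.09 in D0). Of 36 initiation factors 8 and 7 rose, with Eif3f at 1.01 ± 0.11 in D0, and of 17 tested partners of the nascent chain 5 and 5. None of the genes of these lists fell in D0 or D2. Over all genes tested, 6.49% rose and 2.3% fell in D0, and 6.23% rose and 4.1% fell in D2.

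Of 49 genes for ribosome biogenesis, 2 rose in D0, the histone chaperone Npm1 (1.10 ± 0.12) and the methyltransferase Fbl (0.54 ± 0.14), and 3 in D2. Over all genes tested, 6.49% rose in D0 and 6.23% in D2. The list's median was -0.07 in D0, against -0.04 over all genes, and 0.33 in D2, against -0.01. Between D2 and D0 it was 0.36, with 0 genes called. Summed, the list held 0.385% of UMIs in D2-1 and 0.214% in D2-2. The Ctrl libraries held 0.196 to 0.238% and the D0 libraries 0.208 to 0.257%, so of D2-1 and D2-2 only D2-1 lay above these ranges. D2-3, left out of the comparisons, held 0.494%, also above them. Of 77 tested mitochondrial ribosomal proteins 10 rose in D0 and 8 in D2, with a median of 0.19 in D0. Of 20 tested genes of growth signalling and translational control, 0 were called in D0 and 1 in D2, Eif4ebp1 (0.71 ± 0.18), an inhibitor of initiation.

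Markers of other states moved along with the members. Among microglia markers 3 of 12 fell in D0 and 8 of 12 in D2. Over all genes tested, 2.3% fell and 6.49% rose in D0, and 4.1% fell and 6.23% rose in D2. Of 7 tested neutrophil markers 6 rose in D0 and 6 in D2, and the 11 markers of this list summed to 0.0210 to 0.0267% of UMIs in Ctrl libraries. They held 0.0197 to 0.0408% in D0 libraries, 0.0283 to 0.0488% in those of D2, and none was at 0. Of 7 tested monocyte markers 3 and 4 rose (summed, 0.00584 to 0.0172% of Ctrl UMIs, against 0.0103 to 0.0354% for D0 and 0.0138 to 0.0150% for D2). Of the border-associated macrophage markers 3 of 8 tested fell in D0 and 3 in D2, with a list median of -1.36 in D0, and all 9 summed to 0.0217 to 0.0271% of Ctrl UMIs, against 0.0126 to 0.0166% for D0 and 0.0135 to 0.0142% for D2. Of 13 mitochondrially encoded genes 2 rose in D0 and 2 in D2, with medians of 0.32 and 0.37. The immediate-early genes, of which 3 of 12 rose in D0, summed to 1.07 to 1.41% of Ctrl UMIs, against 0.959 to 1.47% for D0 and 0.995 to 1.07% for D2. The part of these in the members' rise was not tested.

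Dividing microglia were compared with other microglia of the same library. Dividing cells, which had UMIs of at least 2 of 8 mitotic genes, numbered 2488 in the 3 D0 libraries, D2-1 and D2-2. The members held 16.7, 16.8 and 16.2% of their UMIs in D0 and 15.5 and 17.3% in D2. The difference from other cells was -1.66, -0.837 and -0.785 points in D0, -1.51 in D2-1 and 0.613 in D2-2, so 4 of 5 libraries were lower and D2-2 was higher. The mean was -0.836 ± 0.900 points (SD, n = 5 pairs, two-sided exact permutation p = 0.125), and 5 pairs cannot pass 0.05 in this test. Dividing cells were deeper (7823 to 13084 UMIs per cell, against 5654 to 10091).

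With the library as a block, 8 members were higher in dividing cells and 13 lower, at a background of 21.7% of the 11797 genes tested higher and 21.1% lower (edgeR), so neither share of the 82 members exceeded that of all genes. All 5 pairs were higher for 13 members, against 21.6% of genes, and lower for 10, against 24.0%. The median log2 change was -0.06, against -0.04 over all genes. Single libraries decided the lower count: without D2-2, 29 members were lower and 6 higher, and without D0-1, D0-2 or D0-3 only 3 were lower.

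**Figure D3:**
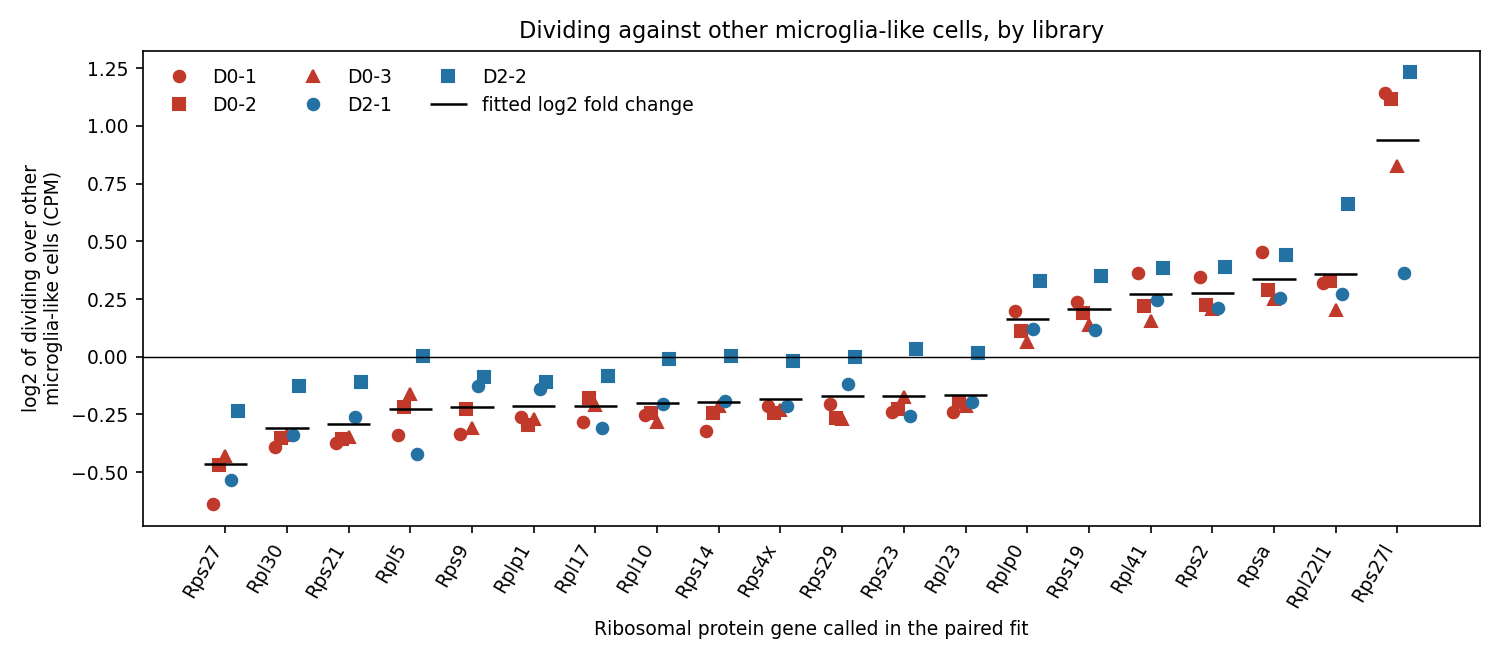
Log2 of the CPM in dividing over that in other microglia-like cells, 1 point per library, for members called in the paired fit; lines are the fitted changes. Rps27l is above 0.36 in each library, and D2-2 is the highest of the 5 libraries for each member drawn but Rpsa.

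Rps27l stood out by size. In dividing cells it had 293, 321, 320 and 217 CPM in D0-1, D0-2, D0-3 and D2-1 and 309.8 in D2-2, and in the other cells 133, 148, 180.4, 169 and 132. Every library was higher in dividing cells, and the change was 0.94 ± 0.12 (SE, adjusted p = 0.000120, edgeR). Its parent gene Rps27 went the other way, from 1721, 1584, 1518, 1309 and 1088 CPM in other cells to 1106, 1143, 1125, 903 and 924 in dividing cells (-0.46 ± 0.07, adjusted p = 0.000388, edgeR). Other rises were those of Rpl22l1 (0.36 ± 0.08), Rpsa (0.34 ± 0.06), Rps2 (0.28 ± 0.06), Rpl41 (0.27 ± 0.06), Rps19 (0.21 ± 0.06) and Rplp0 (0.16 ± 0.06). The falls after Rps27 were small, with Rpl30 at -0.31 ± 0.06, Rps21 at -0.29 ± 0.06, Rps9 at -0.22 ± 0.06, Rplp1 at -0.22 ± 0.06 and Rpl17 at -0.21 ± 0.06. By contrast, 41 of the 77 mitochondrial ribosomal proteins tested were higher in dividing cells and 1 was lower. Of all genes tested, 21.7% were higher and 21.1% lower.

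The share was then compared between cell classes. Classes were clusters drawn without the members and named from markers. In all comparisons between classes, microglia-like cells included the dividing ones. In neutrophil-like cells the members held 4.52% ± 1.13 of UMIs (SD, n = 7 libraries). The difference from microglia-like cells of the same libraries was -10.8 points (0 of 7 higher, adjusted exact permutation p = 0.0273). Endothelial-like cells had 9.22% ± 0.818 (SD, n = 8), a difference of -5.65 points (adjusted exact permutation p = 0.0273). Mural-like cells, the smooth muscle cells and pericytes of vessels, had 7.86% ± 0.671 (SD, n = 6), a difference of -7.27 points (adjusted exact permutation p = 0.0438).

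These means pool groups in which the share of microglia-like cells differed. The neutrophil-like share was 4.51 and 5.45% in the Ctrl libraries, where microglia-like cells had 10.6 and 10.9%, and 3.00 to 6.47% in the treated libraries, where they had 16.8 to 18.2%.

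Higher shares were found in other cells of the immune system. Monocyte-like cells had 18.1% ± 0.867 (SD, n = 7), 2.75 points above microglia-like cells in 7 of 7 libraries (adjusted exact permutation p = 0.0273; 0.146 with D2-3). Monocyte-like cells had 16.3 and 17.7% in the Ctrl libraries and 18.1 to 18.9% in the treated ones, so most of the mean gap came from Ctrl. A cluster that held both border-associated macrophage and dendritic cell markers had 20.6% ± 3.92 (SD, n = 8), 5.77 points above (8 of 8, adjusted exact permutation p = 0.0273). When a finer clustering, chosen after the data were seen, parted it, the macrophage-like cells had 16.8% and the dendritic-like cells 25.5%. Macrophage-like cells had 12.9 to 16.1% in Ctrl, where microglia-like cells had 10.6 to 11.6%. In D0-1 they were lower (17.8 against 18.1%), and in D0-2 and D0-3 higher (19.6 and 18.7 against 17.3 and 16.8%). In both D2 libraries they had 17.2% against 16.8%. The mix of the unparted cluster moved with treatment. It went from 180, 65 and 121 macrophage-like and 23, 8 and 14 dendritic-like cells in the Ctrl libraries to 98 and 139 in D0-2. Treatment differences are therefore given for the parted classes. Lymphoid-like cells had 17.5 to 21.2% in 4 libraries, where the test cannot pass. Without Ctrl-3, D0-1 or D2-2 the adjusted p of the endothelial, neutrophil, monocyte and macrophage or dendritic differences was 0.0547, and that of the mural difference was 0.0750 to 0.0875 without any 1 of its 6 libraries. Astroglial-like cells had 5.06 and 6.90% in 2 libraries and ependymal-like cells 9.20% in 1 (D0-3). The classes differed in depth: the 2 neutrophil-like clusters had medians of 2659 and 9154 UMIs per cell and shares of 5.53 and 3.24%, and the part of depth in these differences was not tested.

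**Figure D4:**
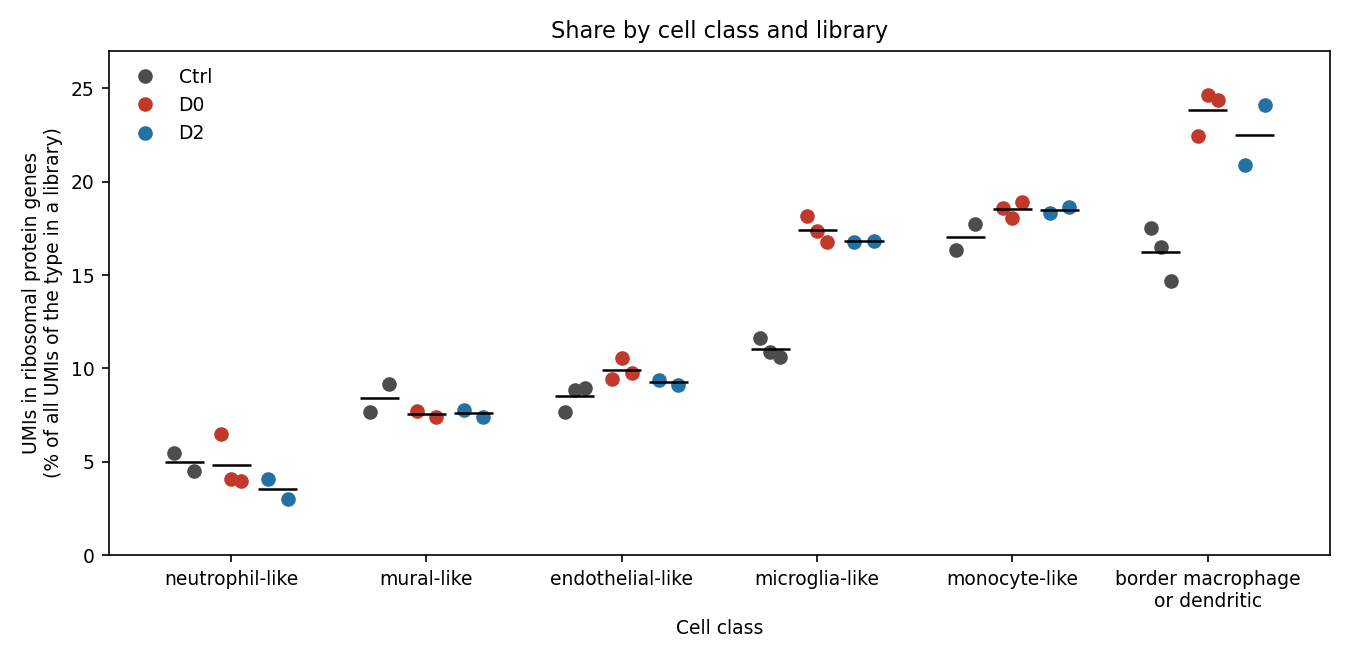
Share of UMIs in the 84 genes, in percent, for 6 cell classes; points are libraries with at least 20 cells of the class, coloured by group, and lines are group means, with D2-3 left out. Neutrophil-like cells lie between 3.00 and 6.47% and the macrophage or dendritic cluster between 14.7 and 24.6%, and in that cluster and in microglia-like cells D0 and D2 stand more than 5 points above Ctrl. The cluster held a larger part of dendritic-like cells in D0 and D2 than in Ctrl.

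The change with treatment was not alike in all classes, a comparison chosen after the values had been seen. In endothelial-like cells the Ctrl libraries had 7.69, 8.86 and 8.95%, the D0 libraries 9.42, 10.5 and 9.77% and the D2 libraries 9.40 and 9.12%. All treated libraries were above all Ctrl libraries. In microglia-like cells, dividing ones included, the D0 difference was 6.39 points. The endothelial-like difference of 1.41 points was 4.98 points smaller (exact permutation p = 0.1, the smallest possible). In monocyte-like cells D0 differed from Ctrl by 1.49 points and in neutrophil-like cells by -0.124 (3 against 2 libraries each). In mural-like cells it differed by -0.875 (2 against 2). The libraries overlapped in neutrophil- and mural-like cells. Mural-like cells had 7.67% in Ctrl-1 and 9.19% in Ctrl-3, and 7.72 and 7.38% in D0. Those of Ctrl-3 had a median of 935 UMIs, against 3811 to 7566 in the other libraries. Dendritic-like cells had 23.3% in 1 Ctrl library and 26.1% in D0, with no test. In border-associated macrophage-like cells Ctrl had 14.7% ± 1.60 (SD, n = 3) and D0 18.7% ± 0.915 (SD, n = 3), 4.04 points more, which was 2.35 points less than in microglia-like cells (exact permutation p = 0.1).

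In endothelial-like cells edgeR called 0 of 81 members in D0 (0.0121% of 8253 genes rose) and 0 in D2 (0.0364%). An unadjusted p under 0.05 was found for 18 and 4 members, and the median member log2 change in D0 was 0.24. Counts at an unadjusted p, in these cells and in macrophage-like cells, were not set against all genes. In a fit of both classes with the library as a block, 41 of 82 members rose less in endothelial-like than in microglia-like cells in D0, against 2.71% of all genes, and 18 in D2, against 2.14%, and 0 rose more, against 0.485% and 0.793% of all genes. With library totals in place of TMM these counts were 10 and 11. Without 1 library the D0 count fell to 14 (Ctrl-2), 9 (Ctrl-3), 17 (D0-1), 14 (D0-2) and 21 (D0-3), and the D2 count to 11 (Ctrl-2), 5 (Ctrl-3) and 6 (D2-2). In macrophage-like cells 0 of 81 members were called in D0 (0.202% of 6914 genes rose and 0.448% fell) or D2 (0.0579% and 0.116%), with 52 and 13 at an unadjusted p under 0.05, and 2 of 82 rose less than in microglia-like cells in each (1.56% and 1.44% of all genes) and 0 rose more (0.153% and 0.0726%). Without Ctrl-1, Ctrl-2, D0-2 or D0-3 these were 0 in both.

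The classes also differed in which members made up their ribosomal protein transcripts. In each of 5 classes with at least 6 libraries 3 members were taken after the values were seen. They had the highest, next highest and lowest ratio of their part to that in microglia-like cells. Only genes with at least 0.1% of member UMIs in microglia-like cells were considered. In neutrophil-like cells Rps9 took 5.02% ± 0.847 of member UMIs (SD, n = 7, range 4.07 to 6.23) against 2.04% ± 0.124 in microglia-like cells (1.80 to 2.17). Rps27a took 4.22% (3.33 to 5.41) against 2.07%, and Rpl10a 0.536% against 1.08%. For all 3 the libraries did not overlap between the classes. Each difference had the same sign in 7 of 7 libraries and an adjusted exact permutation p of 0.0323 over 416 pairs of member and class. Most members passed this test in neutrophil-like cells, 23 of 83 higher and 37 lower, so passing does not set these 3 apart. The counts were 33 and 24 in endothelial-like, 26 and 27 in monocyte-like and 22 and 18 in mural-like cells. In the macrophage or dendritic cluster they were 27 and 26 of 84.

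**Figure D5:**
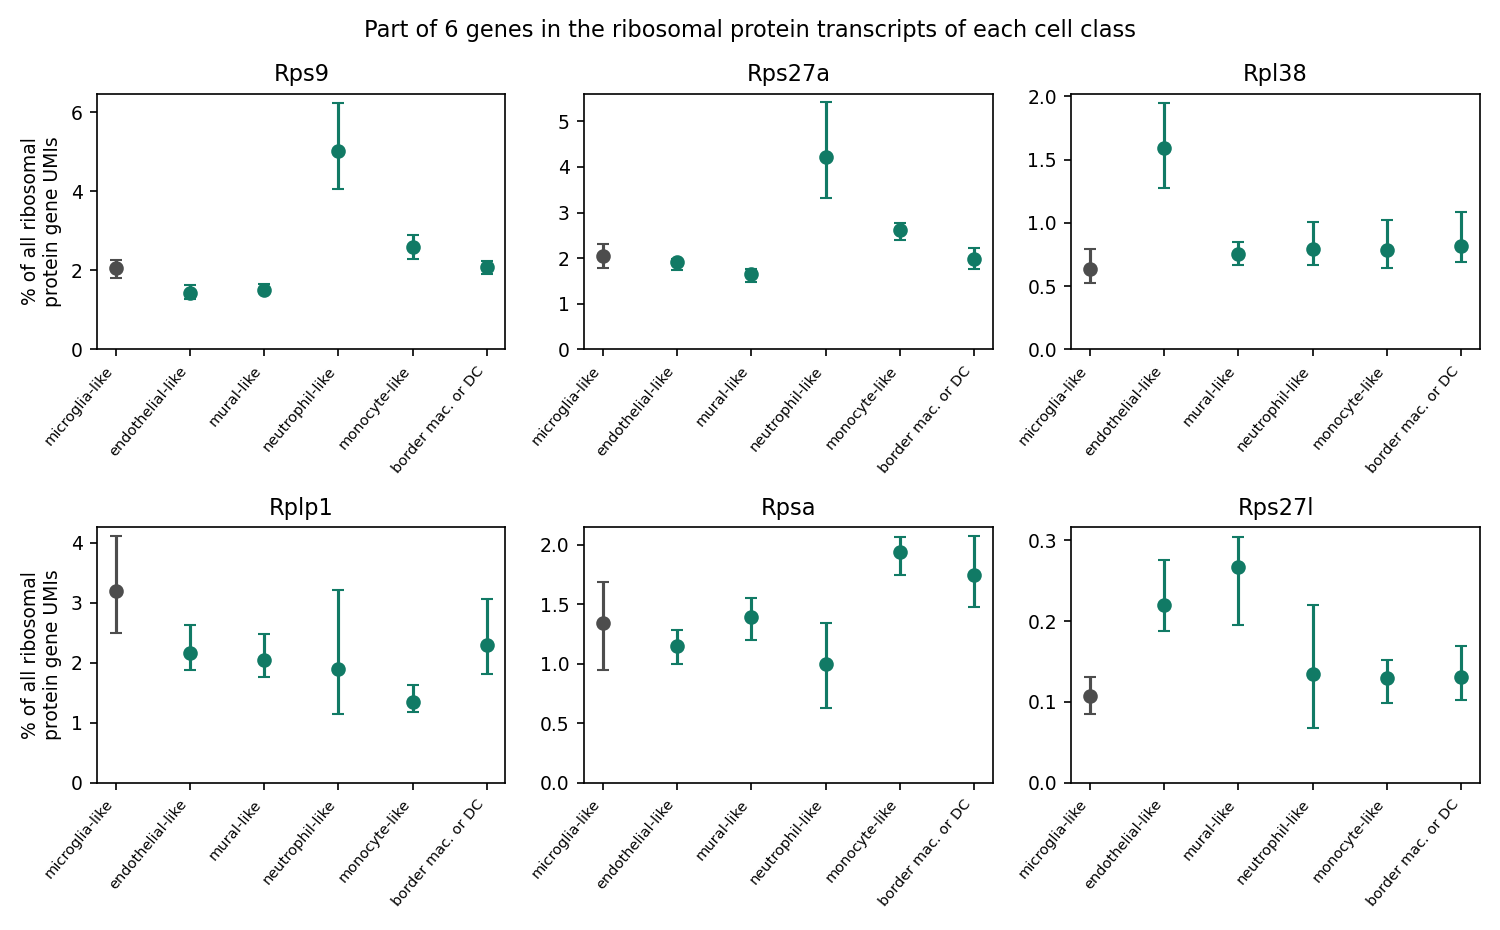
Part of 6 members in all ribosomal protein gene UMIs of a class, in percent, as the mean over libraries with bars from the lowest to the highest library. Rps9 and Rps27a are highest in neutrophil-like cells, Rpl38 in endothelial-like cells and Rplp1 in microglia-like cells, and Rps27l is higher in endothelial- and mural-like cells than in microglia-like cells.

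In endothelial-like cells Rpl38, known for its part in the translation of Hox messengers, took 1.59% ± 0.205 of member UMIs (SD, n = 8, range 1.28 to 1.95), against 0.639% ± 0.0841 in microglia-like cells (0.528 to 0.794). Rps27l took 0.219% against 0.108% and Rplp0 0.982% against 1.58% (all 8 of 8 libraries, adjusted exact permutation p = 0.0323). In mural-like cells Rps27l took 0.266% and Rpl22l1 0.371%, against 0.107% and 0.1998% in microglia-like cells, and Rplp1 2.06% against 3.08% (6 of 6 libraries, adjusted exact permutation p = 0.0494). In monocyte-like cells Rplp1 took 1.35% (1.18 to 1.63) against 3.13% (2.50 to 4.12), while Rpl18 and Rpsa took 1.55% and 1.94% against 1.08% and 1.40% (7 of 7 libraries, adjusted exact permutation p = 0.0323). In the macrophage or dendritic cluster Rplp1 was lower (2.29% against 3.21%) and Rpsa (1.75% against 1.34%) and Rpl38 (0.821% against 0.639%) were higher in 8 of 8 libraries. Leaving out 1 library took the adjusted exact permutation p of these differences to between 0.0268 and 0.0539, with no change of sign. Outside mural-like cells it stayed under 0.05 only without Ctrl-1 or Ctrl-3. None of the 6 libraries of mural-like cells was left out, since the test was run only with at least 6 libraries.

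The 2 untested paralogs were near absent from microglia-like cells. Rpl10l, known from the testis, had 0 UMIs in every class. Rpl3l, known from heart and skeletal muscle, had 2 UMIs in microglia-like, 51 in monocyte-like and 28 in neutrophil-like cells, or 12.8 ± 12.1 (range 0 to 33.6) and 6.26 ± 6.72 CPM without TMM factors (SD, n = 7 each). The reads behind these UMIs were not examined.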

How the data were processed

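The deposited files are count tables: the authors aligned reads to mm10 and counted UMIs per gene and cell with Cell Ranger (3.1.0 per the submitters' notes; the file headers name 3.0.2 for 6 libraries and 3.1.0 for 3). No value had been normalized. The limits on cells (UMIs from 500 to 20000, 200 genes or more, a mitochondrial part up to 10%) left 30463 of 36391 barcodes. Scrublet marked 59 cells (0.194%), too few to have worked, so no doublets were removed.

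Cells were clustered (scanpy 1.11.5, leidenalg 0.10.2, Python 3.11.15) on 3000 variable genes without the members and similar names (94 genes), with 10 components, 20 neighbours and a resolution of 0.6, and clusters were named from marker lists. Raw UMIs were summed per library and class with at least 20 cells. The edgeR quasi-likelihood test (version 4.0.16 under R 4.3.3, TMM factors, Benjamini-Hochberg over all genes, threshold 0.05) was run with all 8 libraries in 1 fit, and with library as a block for dividing against other cells. DESeq2 1.42.0 was an alternative. Shares were compared by exact two-sided permutation over libraries, written in Python with numpy 2.4.6. The fit of conditions was tested on simulated data, in which randomly chosen genes rose or fell in equal number in D0. A joint rise of abundant genes, as in the members, was not simulated, nor were the fits with library as a block. The sums behind the main comparison held 8403908 to 26698539 UMIs per library, and those of the rarer classes, some of 20 to 200 cells, far fewer, so their values carry more counting error.

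The members and gene lists were chosen with earlier results of these data known. Named were the up to 6 largest called changes in each direction without overlap, a list of members with known roles, all paralogs, the 3 highest and 3 lowest members by CPM and, of other lists, the called genes with the highest CPM. Others (Rpl38, Rpl18, Rps9, Rps29 and those beside them) were named after their values were seen. Same-numbered libraries deviated together with r of 0.411, 0.0351, -0.201, 0.220, 0.0900, 0.285 and 0.161, not over 0.1 in every pair, so numbers only name libraries. Other scalings, filters, cell choices, Cell Ranger versions and left-out libraries were tried. Single values of some genes are not reported here.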

Additional observations from a re-analysis of the deposited data

Results flagged for a closer look

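Samples far from the rest of their group were looked for in 42 groups, of which chance alone flags about 1 in 20, and 8 had one. In mural-like cells Ctrl-3 had a share of 9.19%, apart from the other 5 libraries. Its mural-like cells had a median of 935 UMIs, against 3811 to 7566 in the others. The other 7 were all D2-2 in the log2 ratio of dividing over other microglia-like cells: -0.12 for Rpl30, -0.00895 for Rpl10, -0.0189 for Rps4x, 0.0940 for Rpl7, 0.20 for Rplp2, 0.18 for Rpl32 and 0.66 for Rpl22l1, each above the other 4 libraries.

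By a test of the difference itself, 41 of 82 members in D0 and 18 in D2 rose less in endothelial-like than in microglia-like cells, against 2.71% and 2.14% of all genes. In border-associated macrophage-like cells 2 and 2 members did, near the 1.56% and 1.44% of all genes, and 0 without Ctrl-1, Ctrl-2, D0-2 or D0-3. Library D2-3, outside the comparisons, had shares of 20.2% in non-dividing and 21.5% in dividing microglia-like cells, above all Ctrl libraries.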

How the results depend on the processing

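With only the 3.0.2 libraries, thus a single control, 44 members rose in D0 and 7 in D2 (medians 0.94 and 0.76), and the D2 share difference was 5.25 points. With the version as a term, which again leaves Ctrl-1 as the lone control, it was also 5.25, and fewer members were called than in the main fit. Within 3.1.0, with D2-3, the D2 share difference was 9.43 points. Library totals gave 1 member lower in D0, a share of rises among all called genes of 24.1% in D0 and 40.1% in D2 (73.9% and 60.3% with TMM), and 10, 11, 1 and 1 members for the differences of endothelial-like (D0, D2) and macrophage-like (D0, D2) cells. With D2-3 the D2 minus D0 share turned to 0.312 points, the monocyte difference was 2.04 (adjusted exact permutation p = 0.146) and the mural one -7.27 (0.0547). Medians of per-cell shares gave 3.17 for monocyte-like and -6.87 for mural-like cells, no longer past the threshold. In dividing cells, at least 3 mitotic genes gave 5 members higher and 20 lower, no filter 5 higher, other cells without a mitotic gene 6 lower, DESeq2 7 lower and D0 libraries alone 36 lower. The cause of these shifts was not tested. The replicate block gave 78 and 71 members higher in D0 and D2 and share differences of 6.61, 5.60 and -1.12 points, and of the named members Rpl36al lost its D0 call.

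Without 1 library, members higher ranged from 68 to 79 for D0 and from 56 to 70 for D2, and in dividing cells from 5 to 10 higher and 3 to 29 lower. The differences from microglia-like cells ranged from 9 to 58 and 5 to 24 (endothelial-like) and 0 to 6 and 0 to 11 (macrophage-like). Share differences ranged from -6.23 to -5.21 points in endothelial-like, 2.02 to 3.14 in monocyte-like, -8.44 to -6.63 in mural-like and -11.7 to -10.3 in neutrophil-like cells and 5.51 to 6.01 in the macrophage or dendritic cluster. Of single named members, 75 of 891 fits in D0, 70 of 729 in D2 and 41 of 221 in dividing cells lost the call, and none changed sign. For the parts of members in the transcripts of a class, calls were lost more often than kept. In endothelial-, monocyte- and neutrophil-like cells 18 were lost and 12 kept in each class. In mural-like cells 9 were lost and 3 kept, and in the macrophage or dendritic cluster 18 and 9.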
